A study of Homo sapiens with 8 samples.

Results

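The comparison set a GNF-2-resistant population of KCL-22 cells against a nilotinib-resistant population of the same line, with 1 RNA sequencing library a side. KCL-22 is a human chronic myeloid leukemia line established from blast crisis, and it carries the BCR-ABL fusion kinase. Of 31402 entries in the expression table, 9650 reached an FPKM of 5 in at least 1 of the 2 libraries, and these were described. FPKM divides the fragments of a transcript by its length and by the library's mapped total. Of the 9650 entries, 9209 were protein-coding genes.

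The GNF-2 population had grown for 21 days in GNF-2 at 2.5 µM, and the nilotinib population for 27 days in nilotinib at 0.3 µM. Compound, dose and time therefore differ together and cannot be told apart. Before treatment the cells had been transduced with ClonTracer, a lentiviral pool of DNA barcodes, and both populations came from that polyclonal pool. Of the other 6 libraries, 2 served as landmarks: a population grown for 27 days in imatinib at 2.5 µM and a vehicle population held for 7 days in 0.1% DMSO. The remaining 4 are clones, each grown from 1 cell isolated by sorting. Clones 1 and 2, from GNF-2-resistant cells, are resistant to GNF-2. Clone 4, also from GNF-2-resistant cells, is resistant to all 3 inhibitors, and Clone 3, from imatinib-resistant cells, is resistant to imatinib and nilotinib. The compound recorded was GNF-2 at 2.5 µM for Clones 1, 2 and 4, and imatinib at 2.5 µM for Clone 3. No day was recorded for the clones. With 1 library a side there is no replicate check, so no test was made and "higher" and "lower" describe these libraries alone. In a bulk population, fewer cells that make a transcript and less of it per cell cannot be told apart.

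Nilotinib occupies the ATP site of the ABL kinase domain, whereas GNF-2 acts allosterically, from the myristate pocket away from it. BCR-ABL signals through STAT5, whose targets include the feedback inhibitors CISH and the SOCS family, and through MAP kinase, PI3 kinase and MYC, which drive growth and glucose use. Type I interferon acts in parallel through STAT2 and IRF9, among others, to induce antiviral genes, and SOCS1 restrains that pathway too.

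Fragment numbers were estimated from the lowest values above 0 of FPKM times length in intronless genes, and are rough. They came to 18000000 in the GNF-2 library and 29000000 in the nilotinib library, within the 18000000 to 39000000 of all 8 libraries. A 2-kb transcript at an FPKM of 5 then rests on about 180 fragments in the GNF-2 library and 290 in the nilotinib library. Both genes of the fusion were abundant: ABL1 had an FPKM of 81.7 in the GNF-2 population and 86.6 in the nilotinib population, and BCR had 85.1 in the GNF-2 population and 91.0 in the nilotinib population. The leukocyte marker PTPRC had 58.3 in the GNF-2 population and 66.0 in the nilotinib population, and the blood stem cell factor GATA2 had 172 in the GNF-2 and 221 in the nilotinib population. MYB, another progenitor marker, was also abundant, with 63.7 in the GNF-2 population and 38.0 in the nilotinib population. The progenitor markers CD34, CD33 and KIT were low. CD34 had 3.08 in the GNF-2 and 0.66 in the nilotinib population, and CD33 3.07 in the GNF-2 and 1.17 in the nilotinib population. KIT stood at 0 in the GNF-2 population and 0.005 in the nilotinib population. Markers of other blood and tissue cells were mixed. The B cell factors PAX5 and EBF1, the T cell genes CD3G and CD2, the macrophage gene CD163, beta-globin (HBB) and the stromal genes DCN and LUM were all listed at 0 in both. Other markers were clearly present in both: the cytotoxic granule gene NKG7 had 193 in the GNF-2 population and 272 in the nilotinib population, the T cell surface gene CD7 had 38.9 in the GNF-2 and 37.7 in the nilotinib population, and the macrophage gene CD68 had 37.2 in the GNF-2 and 36.5 in the nilotinib population. Of 19 megakaryocyte and platelet genes, 9 reached an FPKM of 5, among them GP9 at 33.6 in the GNF-2 population and 46.4 in the nilotinib population, and the epithelial keratin KRT18 had 32.6 in the GNF-2 and 32.1 in the nilotinib population.

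Most transcripts lay close together in the 2 populations. Differences are given on the log2(FPKM + 1) scale, GNF-2 population minus nilotinib population, which understates the change of genes with low values. Over the 9650 entries the median difference was 0.03 and the SD 0.48, and 92.5% of entries lay within 1.5-fold. The GNF-2 population was the higher one at 54.9% of entries. At least 2-fold apart, a difference of 1 or more on this scale, were 228 entries (2.36%), of which 98 (1.02%) were higher and 130 (1.35%) lower in the GNF-2 population. Of these, 68 were listed at exactly 0 in 1 of the 2 libraries. Above 0 in both there were 9582 entries, of which 67 (0.699%) were at least 2-fold higher and 93 (0.971%) at least 2-fold lower. Few differences were large: 5 of the 67 and 10 of the 93 passed 4-fold. Just inside the limit were HEATR2 at 1.00 and SLC2A5 at -1.01, and just outside it EPSTI1 at 0.99 and STX3 at -0.99. By chromosome the median difference ran from -0.03 on chromosome 8 to 0.12 on chromosome 21.

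**Figure D1:**
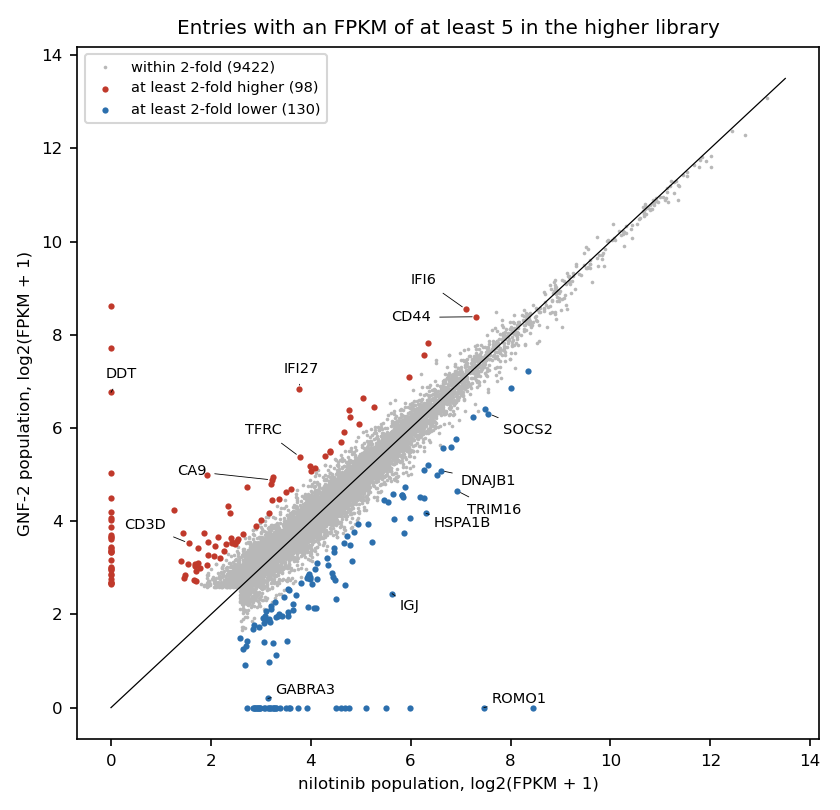
Each point is 1 of 9650 entries, with log2(FPKM + 1) in the nilotinib population on the x axis and in the GNF-2 population on the y axis, and the diagonal marks equal values. The 98 red and 130 blue points are at least 2-fold higher or lower in the GNF-2 population, and those on an axis were listed at 0 in 1 library.

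The transcript with the largest positive difference was IFI27, an interferon-induced mitochondrial protein gene on chromosome 14 (94577078 to 94583033, GRCh37, as are all coordinates of the deposited table given here). It had an FPKM of 113 in the GNF-2 population and 12.6 in the nilotinib population (difference 3.07, an 8.97-fold ratio of FPKM). The imatinib population had 366 and vehicle 82.5, so the nilotinib population was the low one of the 4. Among the clones IFI27 spanned the whole scale, from 2.22 in Clone 1 through 18.0 in Clone 3 and 197 in Clone 2 to 1957 in Clone 4. C1orf186, now named RHEX, a regulator of erythroid cell expansion (chromosome 1, 206238871 to 206288647), had 17.8 in the GNF-2 population and 1.38 in the nilotinib population (2.98). It was also higher in Clone 1 (43.8) and Clone 2 (17.7) than in Clone 3 (2.12). The orphan nuclear receptor NR2F2 (chromosome 15, 96869156 to 96883492) had 12.4 in the GNF-2 population and 1.70 in the nilotinib population (2.32), but 0.02 in Clone 1, 0.07 in Clone 2 and 1.29 in Clone 3. TDRD9, a helicase of the piRNA pathway, had 25.6 in the GNF-2 population and 5.56 in the nilotinib population (2.02), and it was again higher in Clone 1 (69.3) and Clone 2 (35.5) than in Clone 3 (3.62).

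Several receptor genes were in the same group. CD3D, a chain of the T cell receptor complex (chromosome 11, 118209788 to 118213459), had 10.6 in the GNF-2 population and 1.94 in the nilotinib population (1.97), beside 5.23 in the imatinib population and 32.0 in vehicle. Its partner chain CD3E stood at 0.17 in the GNF-2 population and 0.04 in the nilotinib population. CD96, an adhesion receptor of T and NK cells, had 12.4 in the GNF-2 population and 2.63 in the nilotinib population (1.88), and 12.9 in the imatinib population. STAB1, a scavenger receptor, had 99.5 in the GNF-2 population and 32.0 in the nilotinib population (1.60), and the protease inhibitor A2M had 82.2 in the GNF-2 and 26.2 in the nilotinib population (1.61). The hyaluronan receptor CD44 was among the most abundant of the group, with 334 in the GNF-2 population and 158 in the nilotinib population (1.07). For CD44 the other populations, at 194 (imatinib) and 132 (vehicle), lay nearer the nilotinib value. The remaining genes of the 15 largest were FXYD6 (1.98), ANKRD55 (1.75), MYCT1 (1.70), CA9 (1.67), MDFI (1.60), TFRC (1.60) and CCND2 (1.59).

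Of the lower genes, IGJ (now JCHAIN), the joining chain of polymeric immunoglobulins (chromosome 4, 71521257 to 71532348), had 4.45 in the GNF-2 population and 48.5 in the nilotinib population (-3.18). The imatinib population had 15.8 and vehicle 11.9, so the populations lay on both sides of these landmarks. In the clones it ran from 0.57 in Clone 4 to 187 in Clone 1. GABRA3, a GABA-A receptor subunit (chromosome X, 151335633 to 151619831), had 0.15 in the GNF-2 population and 7.83 in the nilotinib population (-2.94), and 0.05 in the imatinib population and 0.45 in vehicle. For this gene the nilotinib population stood alone. TRIM16, an E3 ligase (chromosome 17, 15474804 to 15587613) with a paralogue of similar sequence, had 24.2 in the GNF-2 population and 120.4 in the nilotinib population (-2.27), against 50.8 in the imatinib population and 107 in vehicle. FGFBP2, a secreted protein of cytotoxic lymphocytes, had 12.5 in the GNF-2 population and 57.3 in the nilotinib population (-2.11). ECEL1, an endothelin-converting enzyme relative, had 21.7 in the GNF-2 population and 75.9 in the nilotinib population (-1.76), and the other populations had 21.9 (imatinib) and 21.4 (vehicle). TNFRSF18, a TNF receptor family member known as GITR, had 3.44 in the GNF-2 population and 14.4 in the nilotinib population (-1.80). Both GNF-2-resistant clones were far above the GNF-2 population for TNFRSF18, at 68.7 (Clone 1) and 82.0 (Clone 2). The others of the 15 largest were COL6A2 (-2.20), C1orf212 (-2.17), TMEM158 (-2.16), HSPA1B (-2.14), ZDHHC2 (-1.91), LEFTY2 (-1.85), PPIC (-1.78), GPRC5C (-1.76) and RXFP1 (-1.68).

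**Figure D2:**
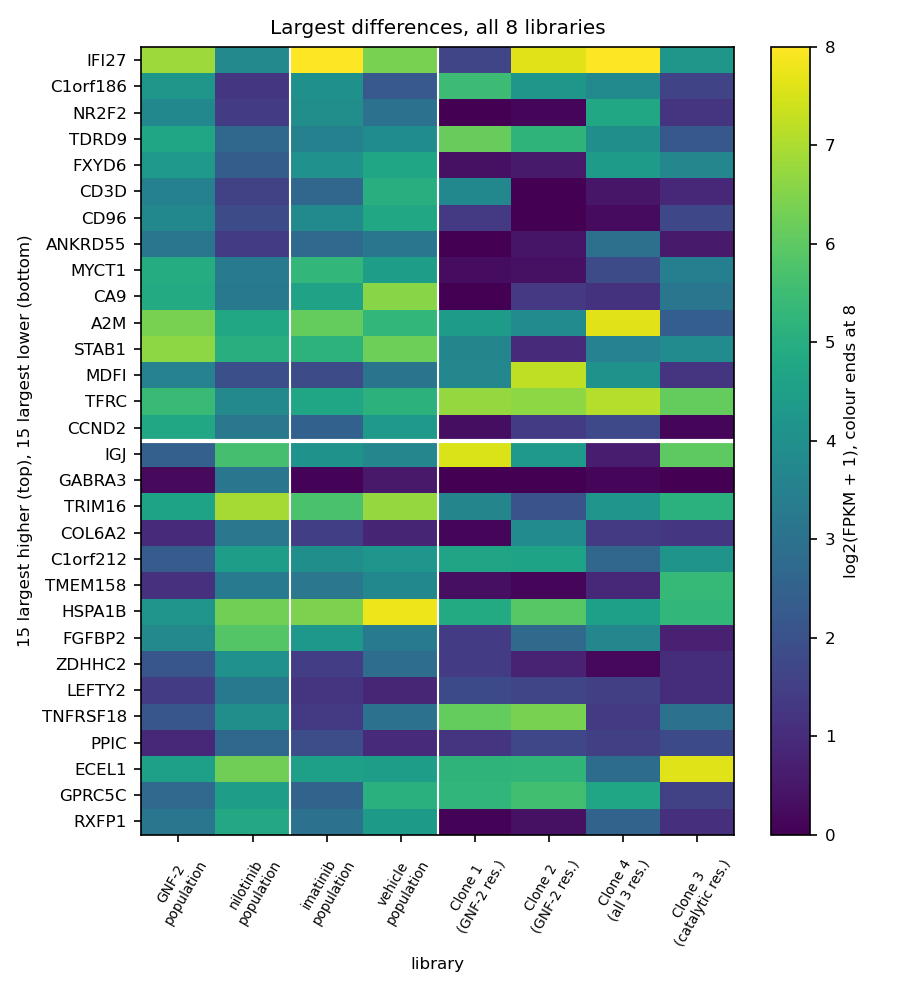
Colour gives log2(FPKM + 1) in each of 8 libraries (columns) for the 15 protein-coding genes with the largest positive and the 15 with the largest negative differences between the GNF-2 and nilotinib populations, above 0 in both (rows). The clones on the right do not always follow the populations, as for NR2F2, TNFRSF18 and GPRC5C, where Clones 1 and 2 differ from Clone 3 in the opposite direction.

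Gene lists were then described by counts and medians. The lists hold the members of a pathway that passed the limit of an FPKM of 5. The share of all 9650 entries in the same direction is the background to read them against. Of all entries, 54.9% were higher in the GNF-2 population, 1.02% at least 2-fold higher and 1.35% at least 2-fold lower.

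Interferon response genes were higher in the GNF-2 population. Of 44 measured, 39 were higher and 5 lower, with a median difference of 0.60 against 0.03 over all entries, and 11 were at least 2-fold higher against 0 at least 2-fold lower. IFI6, an interferon-induced mitochondrial protein gene, had 373 in the GNF-2 population and 136 in the nilotinib population (1.45). ISG15, a ubiquitin-like modifier, had 189 in the GNF-2 and 76.3 in the nilotinib population (1.297). The oligoadenylate synthetases, which activate RNase L on viral RNA, were high as a family: OAS2 had 74.6 in the GNF-2 population and 26.8 in the nilotinib population (1.45), OAS1 had 44.8 in the GNF-2 and 19.9 in the nilotinib population (1.13), OAS3 had 43.6 in the GNF-2 and 20.0 in the nilotinib population (1.09), and the related OASL had 11.7 in the GNF-2 and 3.42 in the nilotinib population (1.53). OAS1, OAS3 and OAS2 are neighbours on chromosome 12. MX2 (1.31), IFI44L (1.23), the RNA sensor DDX58 (1.09) and IFIT3 (1.08) also passed 2-fold.

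The factors that carry the interferon signal differed by less than 2-fold. STAT2 had 37.9 in the GNF-2 population and 25.1 in the nilotinib population (0.57), IRF7 had 44.4 in the GNF-2 and 27.1 in the nilotinib population (0.69), and IRF9 had 23.5 in the GNF-2 and 18.6 in the nilotinib population (0.32). IRF1, a factor induced above all by interferon gamma, was on the other side, with 11.7 in the GNF-2 population and 18.5 in the nilotinib population (-0.62). The remaining lower members were IFITM2 (-0.32), which resembles its IFITM neighbours in sequence, ISG20 (-0.31), GBP2 (-0.24) and TRIM22 (-0.07). Set against the other populations, the GNF-2 population had the highest value of the 4 for 33 of the 44 genes (75%, against 37.7% of 9640 entries with all 4 values). The nilotinib population had the lowest for 24 (54.5%, against 18.1%). The list's median log2(FPKM + 1) was 4.82 in the GNF-2 population, 4.29 in the nilotinib population, 4.47 in the imatinib population and 4.26 in vehicle. In the clones it was 3.12 (Clone 1), 4.40 (Clone 2), 5.80 (Clone 4) and 4.43 (Clone 3), so that Clone 4 was above the GNF-2 population and Clone 1 below the nilotinib population.

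Promoters of this list are shown because its members differed together. The core of the interferon-stimulated response element, GAAA, any 2 bases and GAAA again, was searched on both strands from 250 bases before to 50 bases after the RefSeq gene start (GRCh38.p14). It was found in 21 of 34 interferon list members with a promoter in the table (61.8%), in 2.76% of the 7780 described entries with a promoter and in 3.65% of all 27305 promoters. Among genes at least 2-fold apart it was present in 7 of 50 higher promoters (14%) and 4 of 63 lower ones (6.35%). IFI27 (chr14:94110486-94110785, plus strand), IFI6 (chr1:27672143-27672442, minus strand) and ISG15 (chr1:1013247-1013546, plus strand) had 2, 3 and 2 matches, in capitals, where a match on the opposite strand reads TTTC, any 2 bases and TTTC and overlapping matches run together. The CISH promoter (chr3:50611725-50612024, minus strand) belongs to the STAT5 results and has the motif TTCNNNGAA in capitals.
IFI27: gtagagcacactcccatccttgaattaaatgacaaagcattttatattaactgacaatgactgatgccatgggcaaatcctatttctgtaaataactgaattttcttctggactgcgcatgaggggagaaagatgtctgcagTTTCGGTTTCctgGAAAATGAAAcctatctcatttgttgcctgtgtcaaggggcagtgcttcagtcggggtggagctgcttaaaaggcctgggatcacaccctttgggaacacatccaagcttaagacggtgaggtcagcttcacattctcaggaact
IFI6: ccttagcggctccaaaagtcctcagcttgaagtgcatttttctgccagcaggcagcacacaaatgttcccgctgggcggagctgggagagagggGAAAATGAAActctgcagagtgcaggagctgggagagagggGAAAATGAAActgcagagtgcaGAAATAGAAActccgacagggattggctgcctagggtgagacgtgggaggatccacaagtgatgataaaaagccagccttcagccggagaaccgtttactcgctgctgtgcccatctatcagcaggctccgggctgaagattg
ISG15: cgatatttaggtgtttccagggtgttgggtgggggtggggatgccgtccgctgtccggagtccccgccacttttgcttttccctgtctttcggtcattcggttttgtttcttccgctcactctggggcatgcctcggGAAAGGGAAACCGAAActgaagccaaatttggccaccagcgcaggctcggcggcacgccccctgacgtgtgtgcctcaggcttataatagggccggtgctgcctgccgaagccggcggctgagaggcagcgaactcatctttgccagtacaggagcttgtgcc
CISH: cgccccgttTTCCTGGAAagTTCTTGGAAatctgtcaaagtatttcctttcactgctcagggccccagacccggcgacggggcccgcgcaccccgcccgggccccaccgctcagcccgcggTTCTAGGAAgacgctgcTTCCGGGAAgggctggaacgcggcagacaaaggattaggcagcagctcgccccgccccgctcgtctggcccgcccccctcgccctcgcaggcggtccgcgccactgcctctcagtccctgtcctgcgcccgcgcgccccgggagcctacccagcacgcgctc
These letters describe the window and do not show that a factor binds there.

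MHC class I genes, which interferon can also induce, did not follow the antiviral genes. Of 16 measured members of antigen presentation by class I, 4 were higher and 12 lower in the GNF-2 population (median -0.10), none by 2-fold. HLA-B had 224 in the GNF-2 population and 369.7 in the nilotinib population (-0.72), and HLA-C had 80.8 in the GNF-2 and 136 in the nilotinib population (-0.74). Beta-2-microglobulin (B2M), the light chain, had 1074 in the GNF-2 population and 1376 in the nilotinib population (-0.36). The HLA genes are similar to each other and vary between alleles, so the split of fragments among them is uncertain. The immunoproteasome subunit PSMB9 had 29.7 in the GNF-2 population and 51.1 in the nilotinib population (-0.76), while the peptide transporter chain TAP2 had 44.0 in the GNF-2 and 33.1 in the nilotinib population (0.40).

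**Figure D3:**
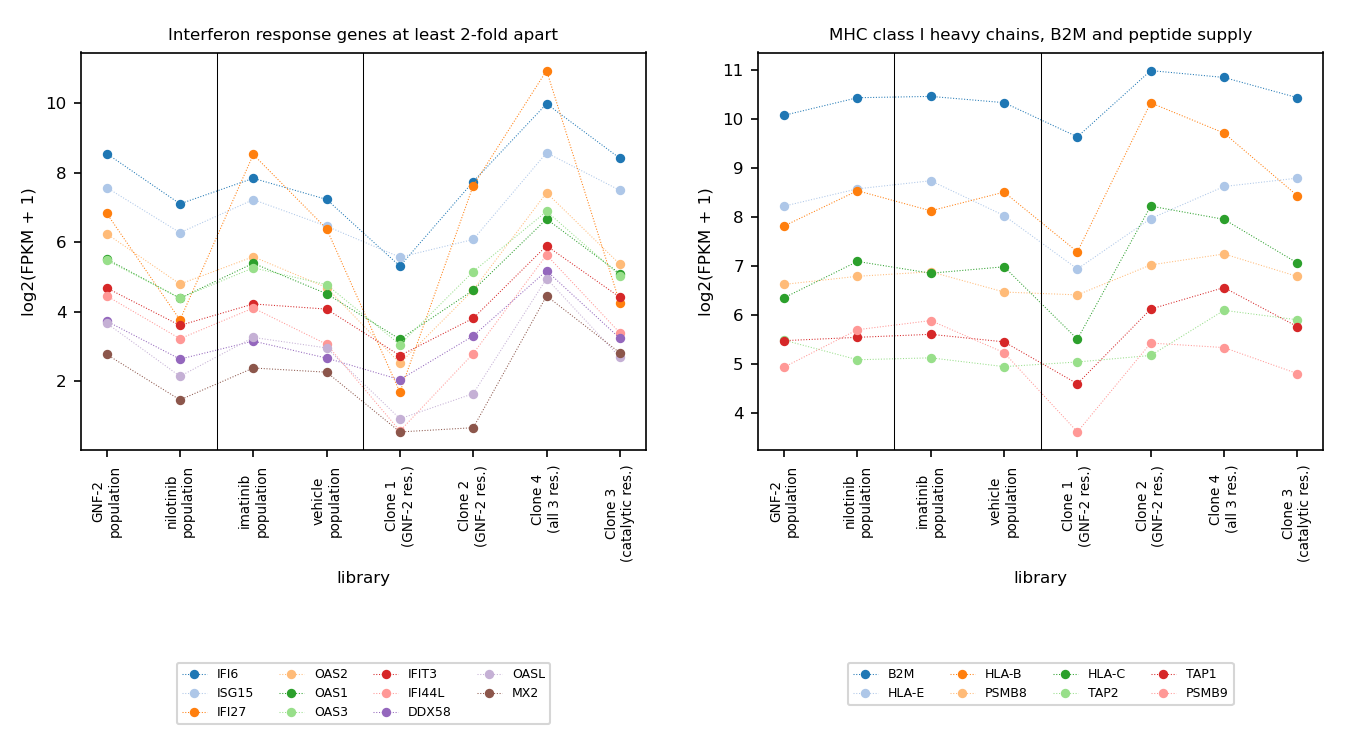
Left, log2(FPKM + 1) of the 11 interferon response genes at least 2-fold apart, and right, of 8 MHC class I genes, in the 2 compared populations, the imatinib and vehicle populations and the 4 clones (x axis). All 11 points on the left are higher in the GNF-2 than in the nilotinib population and highest in Clone 4, whereas HLA-B, HLA-C and B2M are lower in the GNF-2 population.

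Genes downstream of STAT5 were mostly lower in the GNF-2 population. Of 18 measured members of the BCR-ABL and STAT5 output list, 2 were higher and 16 lower (median -0.28), and 5 were at least 2-fold lower against 1 at least 2-fold higher. Feedback inhibitors of JAK and STAT signalling led this side. CISH (chromosome 3, 50643884 to 50649262) had 53.7 in the GNF-2 population and 119.9 in the nilotinib population (-1.14), beside 83.0 in the imatinib population and 147 in vehicle. SOCS2 (chromosome 12, 93963597 to 93969979) had 78.4 in the GNF-2 population and 187 in the nilotinib population (-1.25), beside 138 in the imatinib population and 179 in vehicle. SOCS1 (chromosome 16, 11348273 to 11350039) had 35.8 in the GNF-2 population and 80.9 in the nilotinib population (-1.15), beside 59.9 in the imatinib population and 124 in vehicle. For CISH, SOCS2 and SOCS1 the GNF-2 population was thus the lowest of the 4, and the nilotinib value lay above that of the imatinib population. SOCS3 had 7.38 in the GNF-2 population and 19.3 in the nilotinib population (-1.28), with the imatinib population lower still at 5.75. ID1, an inhibitor of helix-loop-helix factors, had 15.5 in the GNF-2 population and 49.8 in the nilotinib population (-1.63), where vehicle had 26.7.

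Survival and growth members of the list differed less or ran the other way. The kinase PIM1 had 46.4 in the GNF-2 population and 58.9 in the nilotinib population (-0.34), the survival gene MCL1 had 99.96 in the GNF-2 and 121 in the nilotinib population (-0.27), and BCL2L1 had 31.7 in the GNF-2 and 36.6 in the nilotinib population (-0.20). The cytokine OSM had 8.79 in the GNF-2 population and 14.95 in the nilotinib population (-0.70). CCND2, cyclin D2, which drives entry into the cell cycle, had 26.7 in the GNF-2 population and 8.24 in the nilotinib population (1.59), the opposite of the SOCS genes. Its values were 4.58 in the imatinib population, 18.5 in vehicle and at most 2.40 in the 4 clones. For the list as a whole the GNF-2 population was the lowest of the 4 populations at 8 of 18 genes (44.4%, against 24.6% of all entries), the imatinib population at 9 (50%, against 18.6%) and the nilotinib population at 0. The motif TTCNNNGAA was found in 1 of 12 promoters of this list (8.33%), that of CISH shown above, against 7.88% of all promoters. The clones split on these genes: SOCS1 had 13.6 in Clone 1 and 10.9 in Clone 2 against 121 in Clone 3, while SOCS2 had 185 in Clone 1 and 67.8 in Clone 2 against 144 in Clone 3.

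MAP kinase feedback and immediate early genes were divided in the list described, 8 of 18 higher and 10 lower (median -0.08, a sign that turns under other settings), and none passed 2-fold. EGR1, an immediate early factor, had 18.4 in the GNF-2 population and 10.1 in the nilotinib population (0.80), and MAFF had 2.61 in the GNF-2 and 6.07 in the nilotinib population (-0.97). Outside the list, and named after their values were seen, the MAP kinase phosphatase DUSP1 had 5.81 in the GNF-2 population and 14.8 in the nilotinib population (-1.22), and the immediate early nuclear receptors NR4A1 (-1.37) and NR4A2 (-1.01) were also at least 2-fold lower. The ERK phosphatase DUSP6 had 19.7 in the GNF-2 population and 18.2 in the nilotinib population (0.11).

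Glycolysis and hypoxia genes were lower in the GNF-2 population. Of 33 measured, 4 were higher and 29 lower (median -0.40). At least 2-fold lower were 6 (1.35% of all entries), and at least 2-fold higher was 1 (1.02% of all entries). HIF, the hypoxia-inducible factor, is known to induce many genes of this list. PFKFB4, which sets the level of a glycolysis activator, had 47.4 in the GNF-2 population and 110.6 in the nilotinib population (-1.20). HK2, the hexokinase that traps glucose, had 83.5 in the GNF-2 population and 179 in the nilotinib population (-1.09), with 293 in the imatinib population and 282 in vehicle. Adrenomedullin (ADM), a HIF-induced peptide, had 2.23 in the GNF-2 population and 6.21 in the nilotinib population (-1.16), with 34.5 in the imatinib population and 108 in vehicle. For HK2 and ADM the GNF-2 population was the lowest, the nilotinib population next and the imatinib and vehicle populations well above both. ENO2 (-1.12), the histone demethylase KDM3A (-1.06) and ANKRD37 (-1.03) passed 2-fold as well.

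The glucose transporter SLC2A1 had 47.4 in the GNF-2 population and 76.0 in the nilotinib population (-0.67), beside 144 in the imatinib population and 239 in vehicle. The abundant core enzymes differed little: GAPDH had 8662 in the GNF-2 population and 8982 in the nilotinib population (-0.05), and lactate dehydrogenase A (LDHA) had 962 in the GNF-2 and 1241 in the nilotinib population (-0.37). The exception was CA9, carbonic anhydrase IX, a HIF target at the cell surface (chromosome 9, 35673914 to 35681154), with 28.6 in the GNF-2 population and 8.32 in the nilotinib population (1.67), although both lay below the 93.8 of vehicle. The angiogenic factor VEGFA had 118 in the GNF-2 population and 106.5 in the nilotinib population (0.15). The GNF-2 population had the lowest value of the 4 populations for 29 of the 33 genes (87.9%, against 24.6% of all entries), and vehicle the highest for 25. The letters ACGTG, a form of the HIF core motif, were in 14 of 30 promoters of the list (46.7%). The share was 28.4% of described entries and 21.6% of all promoters. It was not particular to this list. Among lists higher in the GNF-2 population, it was 56.5% for MYC targets and ribosome biogenesis and 54.5% for one-carbon and folate genes, but 23.5% for interferon response. ADM and PFKFB4 had no match to these exact letters in this window, and other forms of the motif were not searched.

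Chaperone genes of the heat shock response were lower by large factors, though few of the family were involved. Of 20 measured, 8 were higher and 12 lower (median -0.11), 3 of them at least 2-fold lower. HSPA1B, an inducible HSP70 with a near-identical copy, so that its assignment is uncertain, had 17.0 in the GNF-2 population and 78.2 in the nilotinib population (-2.14), beside 85.5 in the imatinib population and 221 in vehicle. The copy, HSPA1A, had 3.04 in the GNF-2 population and 9.29 in the nilotinib population (-1.35). Another entry named HSPA1B overlaps HSPA1A and was not counted in the list. It had 15.7 in the GNF-2 population and 62.7 in the nilotinib population (-1.93), so the HSPA1A values are a part of that locus. The HSP40 co-chaperone DNAJB1 had 33.0 in the GNF-2 population and 95.9 in the nilotinib population (-1.51), with 103 in the imatinib population and 198 in vehicle. HSPH1 (-0.74) and BAG3 (-0.50) were next. The mitochondrial chaperones were on the other side, with HSPE1 at 204 in the GNF-2 population and 134 in the nilotinib population (0.61) and HSPD1 at 296 in the GNF-2 and 225 in the nilotinib population (0.39). A strict heat shock motif was searched: GAA, TTC and GAA with any 2 bases between them. It was in 5 of 18 promoters of the list (27.8%), against 0.487% of all promoters. HSPA1A, HSPA1B and DNAJB1 had no exact match. Sites that depart from this pattern by a base were not counted, so these promoters may still hold such an element.

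**Figure D4:**
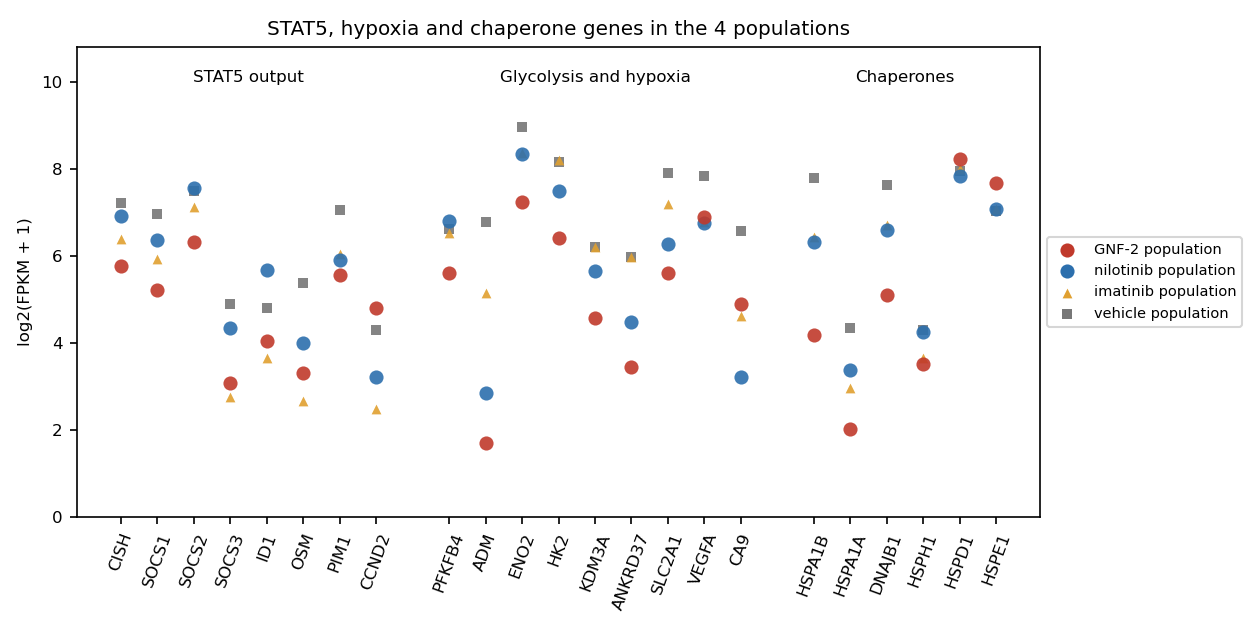
Log2(FPKM + 1) on the y axis in the GNF-2, nilotinib, imatinib and vehicle populations for STAT5 output, glycolysis and hypoxia, and chaperone genes (x axis). CISH, SOCS1, SOCS2, PFKFB4, HK2, HSPA1B and DNAJB1 are lowest in the GNF-2 population, while CCND2, CA9, HSPD1 and HSPE1 are higher in the GNF-2 than in the nilotinib population.

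MYC targets and ribosome biogenesis genes were all a little higher in the GNF-2 population. All 29 measured were on that side (median 0.45, range 0.13 to 0.79), and 0 passed 2-fold. MYC itself had 343 in the GNF-2 population and 269 in the nilotinib population (0.35), with 193 in the imatinib population and 127 in vehicle. LYAR, a nucleolar protein, had 27.8 in the GNF-2 population and 15.7 in the nilotinib population (0.79), MYBBP1A had 9.54 in the GNF-2 and 5.38 in the nilotinib population (0.73), and the pyrimidine synthesis enzyme CAD had 18.9 in the GNF-2 and 11.5 in the nilotinib population (0.67). Nucleolin (NCL) had 255 in the GNF-2 population and 184 in the nilotinib population (0.47). The GNF-2 population had the highest value of the 4 populations for 28 of the 29 (96.6%, against 37.7% of all entries). Cytosolic ribosomal protein genes did not share this, with 9 of 30 higher and 21 lower (median -0.06, from -0.11 to 0.01 under other settings), among them RPS19 at 1849 in the GNF-2 population and 2269 in the nilotinib population (-0.30).

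The cell cycle lists ran in opposite directions. DNA replication genes were higher for 26 of 28 (median 0.43), with the licensing factor CDC6 at 17.9 in the GNF-2 population and 10.7 in the nilotinib population (0.70), the helicase subunit MCM3 at 61.5 in the GNF-2 and 38.2 in the nilotinib population (0.67) and the sliding clamp PCNA at 86.0 in the GNF-2 and 57.8 in the nilotinib population (0.56). Thymidylate synthase (TYMS), at 145 in the GNF-2 population and 162 in the nilotinib population (-0.16), was an exception. The nilotinib population was the lowest of the 4 populations for 20 of the 28 genes (71.4%, against 18.1% of all entries). Among mitosis genes 22 of 30 were lower (median -0.09), the kinesin KIF23 at 13.8 in the GNF-2 population and 18.7 in the nilotinib population (-0.41) and the checkpoint kinase TTK at 30.6 in the GNF-2 and 39.95 in the nilotinib population (-0.37). None of either list passed 2-fold. Replication dependent histones were lower for 6 of 6 (median -0.43), and of these H2BC21, listed as HIST2H2BE, passed 2-fold, with 2.71 in the GNF-2 population and 7.65 in the nilotinib population (-1.22).

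Cholesterol synthesis and uptake genes were higher for 20 of 23 (median 0.35). HMGCS1, which makes the precursor of mevalonate (chromosome 5, 43289492 to 43313595), had 86.6 in the GNF-2 population and 37.7 in the nilotinib population (1.18), beside 53.7 in the imatinib population and 35.9 in vehicle. Squalene epoxidase (SQLE) had 193.5 in the GNF-2 population and 126.5 in the nilotinib population (0.61). The nilotinib population was the lowest of the 4 for 14 of the 23 genes (60.9%, against 18.1% of all entries). In fatty acid synthesis, 8 of 12 genes were higher (median 0.07), close to the 54.9% and 0.03 of all entries.

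The amino acid response driven by ATF4 was represented by 32 genes, of which 27 were higher (median 0.33), 2 of them by at least 2-fold. These were ATF5, a transcription factor of the same family, with 59.1 in the GNF-2 population and 24.5 in the nilotinib population (1.23), and WARS, the tryptophan tRNA synthetase, with 51.2 in the GNF-2 population and 23.2 in the nilotinib population (1.11). WARS is known to be induced by interferon as well. The serine enzyme PSAT1 had 189 in the GNF-2 population and 108 in the nilotinib population (0.81), and asparagine synthetase (ASNS) had 91.3 in the GNF-2 and 58.4 in the nilotinib population (0.64). ATF4 itself had 473 in the GNF-2 population and 503 in the nilotinib population (-0.09), and its target CHAC1 had 33.1 in the GNF-2 and 36.0 in the nilotinib population (-0.12). One-carbon and folate genes were higher for 12 of 13 (median 0.33), led by the folate carrier SLC19A1 at 21.0 in the GNF-2 population and 12.3 in the nilotinib population (0.73). Endoplasmic reticulum chaperones were higher for 14 of 19 (median 0.17), among them HYOU1 at 50.2 in the GNF-2 and 32.5 in the nilotinib population (0.61).

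**Figure D5:**
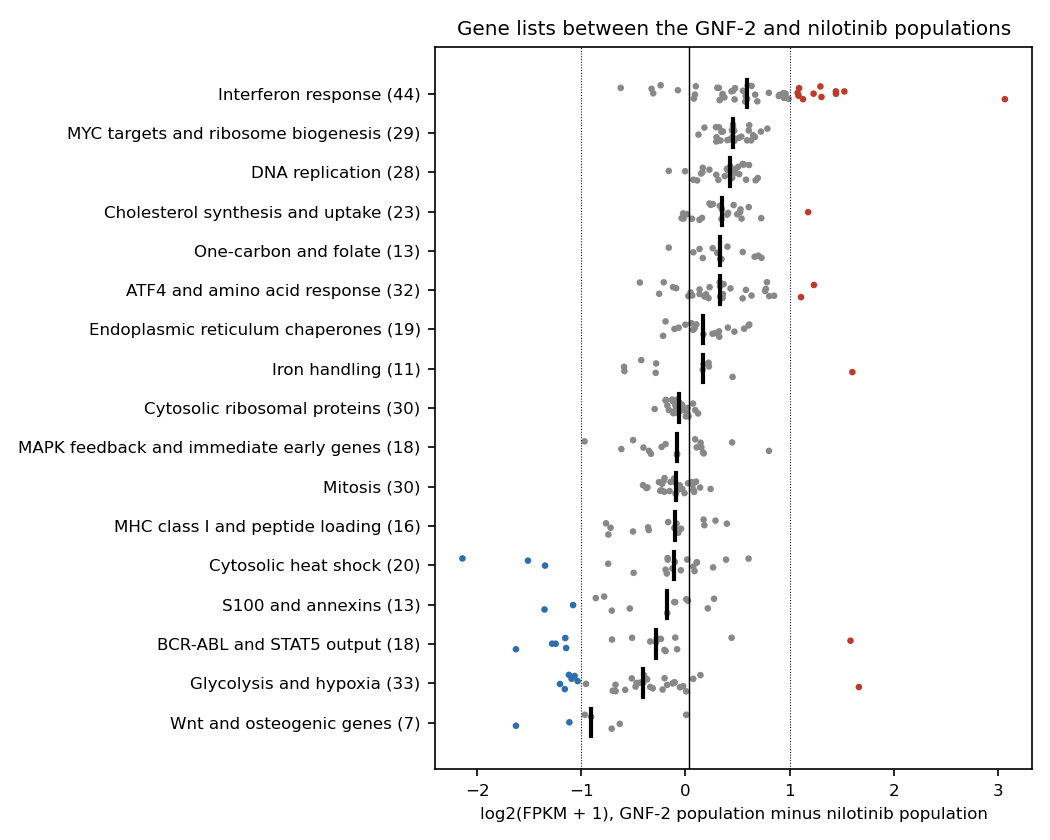
Each point is a list member, placed on the x axis by its difference in log2(FPKM + 1), GNF-2 population minus nilotinib population, with 17 of the 40 lists and their measured members on the y axis and the thick bar at the list median. The solid vertical line is the median of all 9650 entries (0.03), the dotted lines mark 2-fold, and the medians of the lists shown run from 0.60 for interferon response to -0.90 for Wnt and osteogenic genes.

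Iron genes were split, 6 of 11 higher and 5 lower. TFRC, the transferrin receptor through which cells take up iron (chromosome 3, 195776154 to 195809032), had 40.7 in the GNF-2 population and 12.7 in the nilotinib population (1.60), beside 24.9 in the imatinib population and 34.3 in vehicle. All 4 clones were above every population, at 107 (Clone 1), 98.1 (Clone 2), 137 (Clone 4) and 68.3 (Clone 3). The ferritin chains that store iron were on the other side, with FTL at 3097 in the GNF-2 population and 4154 in the nilotinib population (-0.42) and FTH1 at 439 in the GNF-2 and 536 in the nilotinib population (-0.29). NCOA4, which delivers ferritin to the lysosome, had 77.3 in the GNF-2 population and 116 in the nilotinib population (-0.59).

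The S100 and annexin list holds these calcium-binding proteins and also galectins and vimentin. Of its 13 measured members, 9 were lower and 4 higher (median -0.17). S100A6 had 46.5 in the GNF-2 population and 99.4 in the nilotinib population (-1.08), annexin A5 (ANXA5) had 2.57 in the GNF-2 and 8.12 in the nilotinib population (-1.35), and vimentin (VIM) had 233 in the GNF-2 and 381 in the nilotinib population (-0.71). Of 7 measured Wnt and osteogenic genes, 6 were lower (median -0.90). SP7, the osteoblast transcription factor osterix, had 5.43 in the GNF-2 population and 12.9 in the nilotinib population (-1.11), where the imatinib population had 2.33 and vehicle 0.28. ID3 had 12.4 in the GNF-2 population and 24.0 in the nilotinib population (-0.90), next to ID1 above.

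Lineage lists had few members past the limit. Of 17 azurophil granule and neutrophil genes 4 were measured and all 4 were higher (median 0.53), and of 18 mast cell, basophil and eosinophil genes 3 were measured and all 3 were lower (median -0.36, a sign that turns with an FPKM of at least 1). CD79A, a signalling chain of the B cell receptor (chromosome 19, 42381189 to 42385439), had 30.8 in the GNF-2 population and 90.8 in the nilotinib population (-1.53), beside 17.4 in the imatinib population and 28.7 in vehicle. Its partner CD79B had 31.8 in the GNF-2 population and 34.2 in the nilotinib population. IGLL1, a surrogate light chain gene, had 51.5 in the GNF-2 population and 28.8 in the nilotinib population (0.82). Of 15 B lymphoid genes, 7 were at 0 in both populations and 12 under an FPKM of 1 in both, and the summed FPKM was 114 in the GNF-2 population and 154 in the nilotinib population. Over 14 T and NK genes the sum was 251 in the GNF-2 population and 322 in the nilotinib population, with 3 at 0 in both. Most of it was NKG7, at 193 in the GNF-2 population and 272 in the nilotinib population. Over 14 monocyte genes the sum was 87.0 in the GNF-2 population and 94.4 in the nilotinib population, with 5 at 0 in both. The sum over 19 megakaryocyte genes was 329 in the GNF-2 population and 364 in the nilotinib population, over 15 stromal and epithelial genes 47.8 in the GNF-2 and 48.1 in the nilotinib population, and over 20 erythroid genes, most of it TFRC, 46.2 in the GNF-2 and 17.2 in the nilotinib population. The part of other cells in these differences was not tested. The monocyte co-receptor CD14 had 2.91 in the GNF-2 population and 9.20 in the nilotinib population (-1.38), the integrin chain ITGB2 had 22.5 in the GNF-2 and 55.5 in the nilotinib population (-1.26), and the neutrophil protease cathepsin G (CTSG) had 41.4 in the GNF-2 and 18.4 in the nilotinib population (1.13). The pro-apoptotic BMF had 3.23 in the GNF-2 population and 7.56 in the nilotinib population (-1.02), and BCL2 itself had 26.4 in the GNF-2 and 22.3 in the nilotinib population (0.23).

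The same genes were placed against the imatinib and vehicle populations, to see on which side of them each population lay. Among the 67 genes above 0 in both libraries and at least 2-fold higher, the GNF-2 value lay above the imatinib and vehicle values in 52 (77.6%, against 48.2% of all 9650 entries) and the nilotinib value below them in 39 (58.2%, against 32.3%). Both held in 25, against 588 (6.09%) of all entries. Among the 93 lower genes, the GNF-2 value lay below the imatinib and vehicle values in 48 (51.6%, against 31.7%) and the nilotinib value above them in 65 (69.9%, against 40.5%). Both held in 25, against 394 (4.08%) of all entries. Both populations lay on the same side of those landmarks for 10 of the 67 higher genes (14.9%) and 29 of the 93 lower ones (31.2%), against 52.7% of all entries. The 2-fold limit on the pair sets these shares in part by its construction, so they only describe on which side the genes fell. Of the 160 genes in both directions, the GNF-2 value was outside the range of imatinib and vehicle in 119 (74.4%, against 79.9% of all entries) and the nilotinib value in 124 (77.5%, against 72.7%), shares near the background.

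The clones gave values that the population comparison did not use, but of a different origin, since Clone 3 came from imatinib-resistant cells. Of the 66 higher genes with all values, both GNF-2-resistant clones were above Clone 3 in 18 (27.3%), against 37.5% of 9623 entries, and below it in 29 (43.9%), against 28.5%. Of the 93 lower genes, both were below Clone 3 in 37 (39.8%), against the same 28.5%, and above it in 27 (29.03%), against the same 37.5%. For 55 genes in all (18 higher and 37 lower), Clones 1 and 2 and Clone 3 therefore lay in the direction of the populations. RHEX, TDRD9, TRIM16, TMEM158 and SOCS1 were among them. About as many were reversed (29 higher and 27 lower), NR2F2, TNFRSF18 and GPRC5C among them. GPRC5C, lower in the GNF-2 than in the nilotinib population, had 37.2 in Clone 1 and 46.3 in Clone 2 against 1.97 in Clone 3. In both sets Clones 1 and 2 thus lay below Clone 3 more often than over all entries, whichever way the populations differed. The lower genes leaned with the populations and the higher genes against them, and both sets pooled favoured neither direction. With 2 clones against 1, no test was made.

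The last set was listed at exactly 0 in 1 of the 2 libraries. It held 68 entries, 37 at 0 in the GNF-2 population and 31 at 0 in the nilotinib population, and 42 of the 68 were not protein coding, many of them small nucleolar and other short RNAs. Of the protein-coding genes, ROMO1, a mitochondrial inner membrane protein (chromosome 20, 34287231 to 34288902), was listed at 0 in the GNF-2 population and at 176 in the nilotinib population, 134 in the imatinib population and 176 in vehicle. ROMO1 was listed at 159 in Clone 1, resistant to GNF-2, and at 0 in every other clone, also that from imatinib-resistant cells. Its neighbour NFS1, which supplies sulfur for iron-sulfur clusters, overlaps it (34256609 to 34287287). NFS1 was listed at 17.3 in the GNF-2 population, 12.7 in the imatinib population and 0 in the nilotinib and vehicle populations. NFS1 was at 0 in Clone 1 and at 15.3 or more in every other clone. How fragments were divided between these overlapping entries was not tested. DDT, a relative of the cytokine MIF (chromosome 22, 24313553 to 24322019), was listed at 108 in the GNF-2 population and 0 in the nilotinib population, and at 121 in the imatinib population and 0 in vehicle. Among the clones DDT had 82.8 in Clone 2, 73.1 in the clone resistant to all inhibitors and 0 in the others. The mitochondrial ribosomal gene MRPS28 was at 31.9 in the GNF-2 population and 0 in the nilotinib, imatinib and vehicle populations. MRPS28 had 42.7 in Clone 1, 32.6 in Clone 2, 35.2 in the clone resistant to all inhibitors and 0 in the clone from imatinib-resistant cells. Of the microRNA entries, MIR210, a HIF target in many cells, was listed at 0 in the GNF-2 population and 62.7 in the nilotinib population. In the imatinib population MIR210 had 18.5, and in vehicle it was also at 0. MIR3662 was listed at 390.4 in the GNF-2 population and 0 in the nilotinib, imatinib and vehicle populations. No fold is given for entries listed at 0, and they were left out of the largest differences above.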

How the data were processed

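Total RNA of 8 KCL-22 libraries was prepared with spin columns and standard Illumina protocols, per the labels. The deposited values are FPKM, made by the authors with TopHat 1.3 and Cufflinks 1.3 on GRCh37 per the submitters' processing notes, with 1 value per entry and library. The table names no unit, so it was taken from the tool and the values, which are not whole numbers. No read counts were used here, so depth was estimated from FPKM times length in 464 intronless genes (GENCODE release 29). The lowest values above 0 were taken as the value of a fragment. Entries missing in either library (26) were left out.

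For each entry that reached an FPKM of 5 in either library, log2(FPKM + 1) was subtracted, GNF-2 population minus nilotinib population, and a difference of at least 1 was called 2-fold. No p-value was computed, since 1 library a side allows none, and 40 gene lists were described by counts and medians. Current names, biotypes and promoters come from RefSeq tables on GRCh38.p14, which were never joined with GRCh37 coordinates. Named by rule were ABL1 and BCR, the 15 largest differences each way among protein-coding genes above 0 in both libraries, the 5 highest each way among entries listed at 0, and up to 5 list members each way past 2-fold or else the 2 largest. Other list members and neighbours were named after their values were seen. Some list members that enter the counts are not reported here by name. The entries, lists and rules were chosen with earlier results of these data known. Counting was tested on simulated data. Python 3.11.15, numpy 2.4.6, pandas 2.3.3 and matplotlib 3.10.9 were used.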

Additional observations from a re-analysis of the deposited data

How the results depend on the processing

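The count of entries at least 2-fold apart (228, with 98 higher and 130 lower) moved most with the limits set on it. It was 136 (58 higher, 78 lower) with a pseudocount of 5, 358 (161 higher, 197 lower) with an FPKM of at least 1, 142 (62 higher, 80 lower) with an FPKM of at least 10 and 83 (36 higher, 47 lower) at 4-fold. Rescaling every library to the sum that TPM would have gave 336 (158 higher, 178 lower) of 10952 entries; it raises every value, so the limit of 5 and the pseudocount of 1 weigh less too. It was 270 with a pseudocount of 0.1, 205 with none, 222 with median-ratio scaling, 241 with quantile normalization, 169 for protein-coding entries only and 160 above 0 in both libraries, an alternative chosen after seeing the data. No scaling moved the median of all entries by as much as 0.05.

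Of 360 list medians recomputed, 352 stayed within the yardstick of 0.264, a robust SD over all entries. Wnt and osteogenic genes moved to -0.51 with a pseudocount of 5. The mast cell list turned to 0.12 with an FPKM of at least 1, where more of its low genes enter. The erythroid list, which holds TFRC alone, moved to 0.79 with an FPKM of at least 1 and 0.83 with rescaled sums. T and NK genes turned from -0.22 to 0.046 with an FPKM of at least 10, 0.068 with rescaled sums and 0.052 with quantile normalization. NF-kB genes turned from 0.27 to -0.0268 with quantile normalization. The genes that followed the populations in the clones (55) numbered 70 to 85 when Clone 1 or Clone 2 was left out, which by construction asks 1 clone in place of 2. Leaving out Clone 2 gave 85.

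No paired analysis was possible because each compared population has 1 library. Depth is an estimate, and at the limit of an FPKM of 5 the GNF-2 library rests on fewer fragments than the nilotinib library.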

Other observations

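Other lists showed small differences between the GNF-2 and nilotinib populations, given here as values. Of 7 measured drug exporters and carriers, 5 were higher in the GNF-2 population (median 0.36), led by ABCC5 at 6.37 in the GNF-2 population and 3.62 in the nilotinib population (0.67) and ABCC4 at 10.7 in the GNF-2 population and 7.18 in the nilotinib population (0.52), neither of them 2-fold. Of 17 antioxidant genes regulated by NRF2, 10 were higher and 7 lower (median 0.09), near the 54.9% higher and median of 0.03 over all entries. The cystine carrier SLC7A11, shared with the ATF4 list, had 12.1 in the GNF-2 population and 6.26 in the nilotinib population (0.85). Of 12 arginine and polyamine genes, 8 were higher and 4 lower (median 0.19). The arginine carrier SLC7A1 had 46.6 in the GNF-2 population and 27.0 in the nilotinib population (0.77), and ornithine decarboxylase (ODC1) had 105 in the GNF-2 population and 72.0 in the nilotinib population (0.54).

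Glycogen genes were lower for 7 of 11 (median -0.12), among them STBD1, which anchors glycogen to membranes, at 10.1 in the GNF-2 population and 19.1 in the nilotinib population (-0.86). FOXO targets were lower for 7 of 11 (median -0.21), but the transcription factor KLF2 had 16.6 in the GNF-2 population and 7.86 in the nilotinib population (0.99). The chemokine CCL5 had 189 in the GNF-2 population and 108 in the nilotinib population (0.81), and the adhesion molecule ICAM1 had 3.79 in the GNF-2 population and 8.31 in the nilotinib population (-0.96). ALOX5AP, needed for leukotriene synthesis, had 35.9 in the GNF-2 population and 18.5 in the nilotinib population (0.92), while LTC4S, which makes leukotriene C4, had 41.1 in the GNF-2 population and 62.7 in the nilotinib population (-0.60).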
